A study of Homo sapiens with 6 samples.

Results

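The nuclear pore complex genes described here are 32 nucleoporin genes, taken by name from a list of the pore's building blocks and matched to Ensembl identifiers among the 63140 genes of the count table. All 32 passed the filter on low counts and were among the 17427 genes tested. The set was put together with the large decrease of 1 member, NUP210, in this same contrast already known. The values of NUP210 are therefore given as a description without a p-value. Some counts of members that fell include its call, and these say so. The number of members that changed is read only beside the share of all tested genes that changed.

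The libraries came from HEK293T, a line of human embryonic kidney cells that carries the SV40 large T antigen. Cells were transfected with a miR-34a duplex (3 libraries) or with the AllStars negative control (3 libraries), and total RNA was collected after 18 h. The sample descriptions call the control an siRNA and the design text calls it a miRNA. The design text calls the 3 libraries of each group biological replicates. Nothing says that they came from separate passages, so the p-values measure the spread between these libraries.

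The nuclear pore is a large ring-shaped channel through the nuclear envelope, built from many copies of each nucleoporin. Transmembrane nucleoporins anchor it in the membrane, the Y-complex and the inner ring form its scaffold, and nucleoporins rich in phenylalanine-glycine repeats fill the channel and bind transport receptors. Filaments on the cytoplasmic side and a basket on the nuclear side take part in export and import. miR-34a is a microRNA that p53 is known to induce. Loaded into Argonaute, it pairs through its seed with messenger RNAs and lowers their output.

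The mature miR-34a-5p (RefSeq, GRCh38.p14, chromosome 1, 9151735 to 9151756, minus strand) is shown first because every site below is read against it. Its seed, bases 2 to 8, is in capitals. In the windows from GENCODE release 29 transcripts (GRCh38), capitals mark the matched motif: the bases that pair with the seed and, in a motif that ends in A after ACTGCC, that A, which lies opposite base 1 and outside the seed. The first pair lies in the 3′ UTR of NUP210, the member with the largest decrease.
hsa-miR-34a-5p: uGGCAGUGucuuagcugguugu
NUP210 3′ UTR site 1: caggccagcttCACTGCCgtctcttcaca
NUP210 3′ UTR site 2: tgtatctgcgcCACTGCCgcaagggaagc
NUP43 3′ UTR site: ttgttcattgtCACTGCCtttattcatga
NUP188 3′ UTR site: attccccacagCACTGCCggccaggggag

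Matches of several lengths were searched on the sense strand of the transcripts. An 8mer is CACTGCCA, a 7mer-m8 is CACTGCC, a 7mer-A1 is ACTGCCA and a 6mer is ACTGCC. The shorter motifs lie within the longer ones, and each site was counted once, as its longest kind. In each gene the transcript with the longest coding sequence was searched, since none in this release carries a MANE Select tag. Both NUP210 sites are 7mer-m8 matches in exon 40 of 40, on the minus strand of chromosome 3. They cover 13317548 to 13317554 and 13317137 to 13317143, and begin 126 and 537 nt after the stop codon in a 3′ UTR of 1446 nt. The NUP43 site is a 7mer-m8 on chromosome 6 (149725045 to 149725051, minus strand), 1917 nt after the stop codon in exon 8 of 8. The NUP188 site is a 7mer-m8 on chromosome 9 (129006957 to 129006963, plus strand), 278 nt after the stop codon in exon 44 of 44. These were the 3 members with a match of 7 or 8 nt among the 27 members whose searched 3′ UTR was at least 50 nt long, or 11.1% of them. Over all 12895 tested genes with such a 3′ UTR the share was 20.9%.

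The level of a gene is given as CPM, its read count divided by the TMM-scaled size of the library. In the edgeR quasi-likelihood test a gene is said to have risen or fallen where its Benjamini-Hochberg adjusted p over all 17427 genes was under 0.05. By that rule 12.1% of all tested genes changed, 6.7% falling and 5.38% rising. NUP210 was picked for its decrease and is left out of the next count. Of the other 31 pore genes 5 fell (16.1%), 1 rose and 25 did not pass. Those that fell were POM121 and POM121C of the membrane ring, NUP214 and RAE1 of the cytoplasmic side and SEH1L of the Y-complex. POM121 and POM121C share much of their sequence, so their calls are not independent and the 16.1% may count 1 change more than once. AHCTF1 of the Y-complex was the 1 that rose. The median log2 fold change of these 31 genes, miR-34a over control, was 0.01, and that of all tested genes was -0.00. The 3 miR-34a libraries lay wholly below the 3 control libraries for 7 of the 31 and wholly above them for 7, against 14.2% and 13.1% of all tested genes. The remaining 17 members had overlapping groups. Mean levels of the 31 genes ran from 30.1 to 771 CPM. Of 16756 tested genes whose GC content was read, only 8110 were above 20 CPM. The shares over all tested genes were not matched for level, and the bearing of level on the numbers of calls was not tested. Since the counts come from bulk RNA, a change in RNA per cell and a change in the make-up of the culture cannot be told apart.

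**Figure D1:**
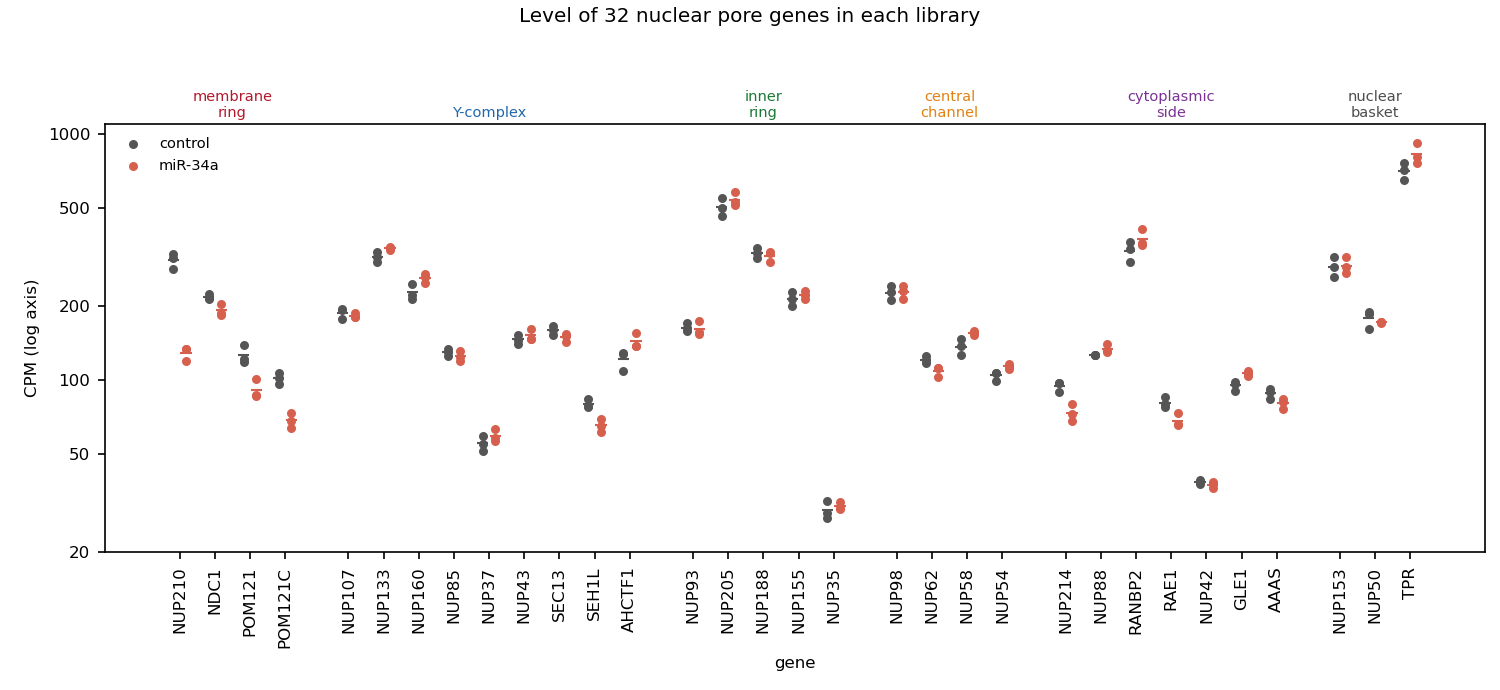
Level of each of the 32 pore genes (CPM, log axis) in the 3 control libraries (grey) and the 3 miR-34a libraries (red), grouped by subcomplex, with a bar at each group's mean. NUP210 has the widest gap between the groups, with 282 to 325 CPM in the control libraries and 120 to 134 CPM in the miR-34a libraries.

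The libraries held 24728662 to 36650331 counts, with TMM factors of 0.981 to 1.016. The 7 genes taken as HEK293T markers summed to 659 to 698 CPM in the control libraries and 621 to 658 CPM in the miR-34a libraries. They were not all well expressed, with PAX2 at only 1.14 to 2.24 CPM. The 8 markers of other cell types summed to at most 0.409 CPM in any library, with CD3E and MYH6 at 0 in all of them. GC content moved with the groups. Over the 8110 genes above 20 CPM, the Spearman correlation across genes between GC content and a library's deviation from the mean was 0.046, 0.63 and 0.24 in control replicates 1 to 3. It was -0.37, -0.49 and -0.23 in the miR-34a replicates. A fit with each library's trend in GC removed, called the GC correction here, stands beside the plain fit in the plot of log2 fold changes, and in the text for each pore or transport gene whose call it changed.

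The membrane ring holds the pore in the nuclear envelope. All 4 of its genes, NUP210 among them, were lower in every miR-34a library than in any control library. Over all tested genes this held for 14.2%. Apart from NUP210, POM121 and POM121C fell and NDC1 did not pass. With NUP210 counted, the median log2 fold change was -0.52, and -0.40 with the GC correction. This was the lowest median of the 6 subcomplexes, which is a description only. NUP210 was picked for its decrease, and POM121 and POM121C share much of their sequence. With NUP210 left out, POM121 had the middle value of the ring, -0.47.

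NUP210 (gp210, ENSG00000132182, chromosome 3, 13316235 to 13420309, minus strand) encodes a single-pass transmembrane nucleoporin whose bulk lies in the lumen of the nuclear envelope. The control libraries gave 313, 325 and 282 CPM. The miR-34a libraries gave 134, 120 and 134 CPM. The groups were far apart, the highest miR-34a library lying below the lowest control library. The mean went from 307 ± 22.3 CPM (SD, n = 3) to 129 ± 8.18 CPM (SD, n = 3), a 2.38-fold decrease. The log2 fold change was -1.25 ± 0.07 (SE), which ranked 33 of 17427 genes from the most negative. It ranged from -1.30 to -1.19 when each library was left out in turn, and was -1.15 with the GC correction. The median log2 fold change over the 2076 genes within 2 percentage points of its GC content was -0.09. No 50-nt stretch of its searched transcript is found in another gene's transcripts.

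POM121 (ENSG00000196313, chromosome 7, 72879365 to 72951440, plus strand) and POM121C (ENSG00000272391, chromosome 7, 75416787 to 75486271, minus strand) are near-identical copies that encode a transmembrane nucleoporin with a repeat-bearing tail, known for its part in pore assembly. POM121 stood at 139, 119 and 122 CPM with the control and at 87.2, 86.4 and 101 CPM with miR-34a. POM121C stood at 107, 96.1 and 102 CPM with the control and at 68.5, 63.8 and 73.3 CPM with miR-34a. Both had every miR-34a library below every control library. POM121 fell, with a log2 fold change of -0.47 ± 0.08 (SE, edgeR adjusted p = 0.000122). POM121C fell as well, with a log2 fold change of -0.57 ± 0.07 (SE, edgeR adjusted p = 3.84e-06). The copies cannot be judged apart, since 58.3% of the 50-nt stretches of the searched POM121 transcript and 67.0% of those of POM121C occur in other genes, 44.0% and 44.8% in each other. Summed, they came to 246, 215 and 224 CPM with the control and 156, 150 and 174 CPM with miR-34a. As 1 gene they fell, with a log2 fold change of -0.51 ± 0.07 (SE, edgeR adjusted p = 1.90e-05).

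NDC1, the remaining gene of the ring, encodes a multi-pass membrane protein needed to insert pores. It did not pass the test and is described because it completes the ring, a choice made after its values were seen. It was at 214, 215 and 225 CPM with the control and at 204, 185 and 188 CPM with miR-34a. The groups did not overlap, but the log2 fold change was -0.18 ± 0.07 (SE, edgeR adjusted p = 0.0863). With the GC correction it was -0.26 and passed (edgeR adjusted p = 0.00792).

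The Y-complex is the outer scaffold of the pore. Of its 9 genes 1 fell, 1 rose and 7 did not pass, so 22.2% changed, against 12.1% of all tested genes. The log2 fold changes ran from -0.29 to 0.23, with a median of 0.05. The median was 0.01 without miR-34a replicate 1 and -0.01 with the GC correction. SEH1L (ENSG00000085415, chromosome 18, 12947133 to 12987536, plus strand) encodes a beta-propeller protein shared between the Y-complex and a regulator of mTORC1. SEH1L was at 83.8, 77.9 and 78.7 CPM with the control and at 69.7, 65.3 and 61.3 CPM with miR-34a. All miR-34a libraries were below the controls, and the log2 fold change was -0.29 ± 0.07 (SE, edgeR adjusted p = 0.00701). SEC13, its partner of the same fold and also a COPII coat subunit, went from 160 ± 6.26 to 150 ± 5.76 CPM (SD, n = 3 each) with overlapping groups.

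AHCTF1 (ELYS, ENSG00000153207, chromosome 1, 246839098 to 246931967, minus strand) encodes the protein that brings the Y-complex to chromatin when pores form after mitosis. It was at 129, 109 and 128 CPM with the control and at 138, 138 and 156 CPM with miR-34a. The lowest miR-34a library lay just above the highest control library. AHCTF1 rose by 0.23 ± 0.08 on the log2 scale (SE, edgeR adjusted p = 0.0452). The call was lost in 6 of 12 alternatives, with the replicate block (edgeR adjusted p = 0.0595) and without any library but control replicate 1. The edgeR adjusted p was 0.251 without control replicate 2, 0.0648 without control replicate 3, and 0.0523, 0.0687 and 0.213 without miR-34a replicates 1, 2 and 3. With the GC correction the log2 fold change was 0.14 (edgeR adjusted p = 0.226). Of its 50-nt stretches 49.2% occur in other genes, nearly all in the pseudogene AHCTF1P1.

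NUP43 encodes a peripheral beta-propeller of the Y-complex and carries the 3′ UTR match shown above. Its level was 153, 146 and 141 CPM with the control and 162, 147 and 147 CPM with miR-34a. The groups overlapped, and the log2 fold change was 0.05 ± 0.07 (SE, edgeR adjusted p = 0.704). Part of its exons, 5.03%, lies opposite those of PCMT1, and the library kit named in the protocols does not mark strand, so reads there, and in the other opposite-strand overlaps given below, cannot be assigned. NUP133 and NUP160, large scaffold arms of the complex, had miR-34a libraries wholly above the controls without passing. Their log2 fold changes were 0.11 ± 0.07 and 0.19 ± 0.07 (SE). NUP160 passed the same test without control replicate 1, with a log2 fold change of 0.26. The other 4 genes of the complex, NUP107, NUP85, NUP37 and SEC13, had log2 fold changes from -0.09 to 0.10 and overlapping groups.

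No gene of the inner ring, the scaffold around the channel, passed the test, and all 5 had overlapping groups. NUP205, a large solenoid protein of this ring, was at 551, 464 and 501 CPM with the control and at 531, 517 and 580 CPM with miR-34a. Its log2 fold change was 0.10 ± 0.07 (SE, edgeR adjusted p = 0.437). NUP188, its paralogue and the bearer of a 3′ UTR match, was at 345, 330 and 313 CPM with the control and at 329, 301 and 333 CPM with miR-34a. Its groups overlapped as well, with a log2 fold change of -0.04 ± 0.07 (SE, edgeR adjusted p = 0.808). NUP93, NUP155 and NUP35 had log2 fold changes from -0.02 to 0.06.

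None of the 4 genes of the central channel passed. NUP98, a repeat nucleoporin made from the same precursor as the scaffold protein NUP96, was at 242, 211 and 227 CPM with the control and at 231, 214 and 242 CPM with miR-34a. Its log2 fold change was 0.01 ± 0.07 (SE), with groups that overlapped fully. NUP58 forms the channel's heterotrimer with NUP62 and NUP54. It stood at 147, 126 and 137 CPM with the control and at 152, 156 and 158 CPM with miR-34a. All its miR-34a libraries were above the controls, with a log2 fold change of 0.18 ± 0.07 (SE, edgeR adjusted p = 0.0912), and it passed without control replicate 1, at 0.24. The partners of NUP58 lay on either side of 0, and both had groups that did not overlap. NUP54 had a log2 fold change of 0.12 ± 0.07 (SE, edgeR adjusted p = 0.277), and NUP62 one of -0.16 ± 0.07 (SE, edgeR adjusted p = 0.154). Of the exons of NUP62, 10.4% lie opposite those of ATF5.

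On the cytoplasmic side, where export complexes are taken apart, 2 of 7 genes fell and none rose. The share that fell was 28.6%, against 6.7% of all tested genes. NUP214 (ENSG00000126883, chromosome 9, 131125561 to 131234670, plus strand) encodes a repeat nucleoporin that binds the exportin CRM1. NUP214 was at 97.2, 89.9 and 97.1 CPM with the control and at 72.6, 68.5 and 80.1 CPM with miR-34a. The miR-34a libraries were all lower, and the log2 fold change was -0.36 ± 0.07 (SE, edgeR adjusted p = 0.00124). NUP88 holds NUP214 at the pore, and its exons lie in part opposite those of RPAIN (9.82%) and RABEP1 (8.84%). NUP88 was at 126 ± 0.305 CPM in the control and 134 ± 5.42 CPM in the miR-34a libraries (SD, n = 3 each). Its miR-34a libraries lay wholly above the controls, with a log2 fold change of 0.08 ± 0.07 (SE, edgeR adjusted p = 0.516).

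RAE1 (ENSG00000101146, chromosome 20, 57351010 to 57379211, plus strand) encodes an export factor that binds NUP98. It was at 77.6, 80.1 and 85.6 CPM with the control and at 73.4, 65.5 and 66.1 CPM with miR-34a. The groups did not overlap, and the log2 fold change was -0.25 ± 0.07 (SE, edgeR adjusted p = 0.0241). The call was lost without control replicate 3 (edgeR adjusted p = 0.154), without miR-34a replicate 2 (0.146) and without miR-34a replicate 3 (0.0839). The other 4 genes of this side, RANBP2, NUP42, GLE1 and AAAS, did not pass. Their log2 fold changes ran from -0.14 to 0.16. GLE1, the activator of the export helicase DDX19, had its miR-34a libraries wholly above the controls. RANBP2, the SUMO ligase of the cytoplasmic filaments, passed without control replicate 1, at 0.23, and shares 27.1% of its 50-nt stretches with other genes, mostly RGPD3.

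In the nuclear basket none of 3 genes passed and all had overlapping groups. TPR, the coiled-coil protein that forms the basket's struts, was at 767, 654 and 714 CPM with the control and at 762, 805 and 922 CPM with miR-34a. Only 1 miR-34a library, replicate 1, lay within the range of the control. The log2 fold change of TPR was 0.22 ± 0.08 (SE, edgeR adjusted p = 0.0661). It passed without control replicate 1 (0.28) and without miR-34a replicate 1 (0.28). NUP153, which anchors the basket, was at 317, 263 and 288 CPM with the control and at 289, 273 and 316 CPM with miR-34a. The log2 fold change of NUP153 was 0.01 ± 0.08 (SE). NUP50, a cofactor of importin release, had a log2 fold change of -0.06 ± 0.07 (SE).

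**Figure D2:**
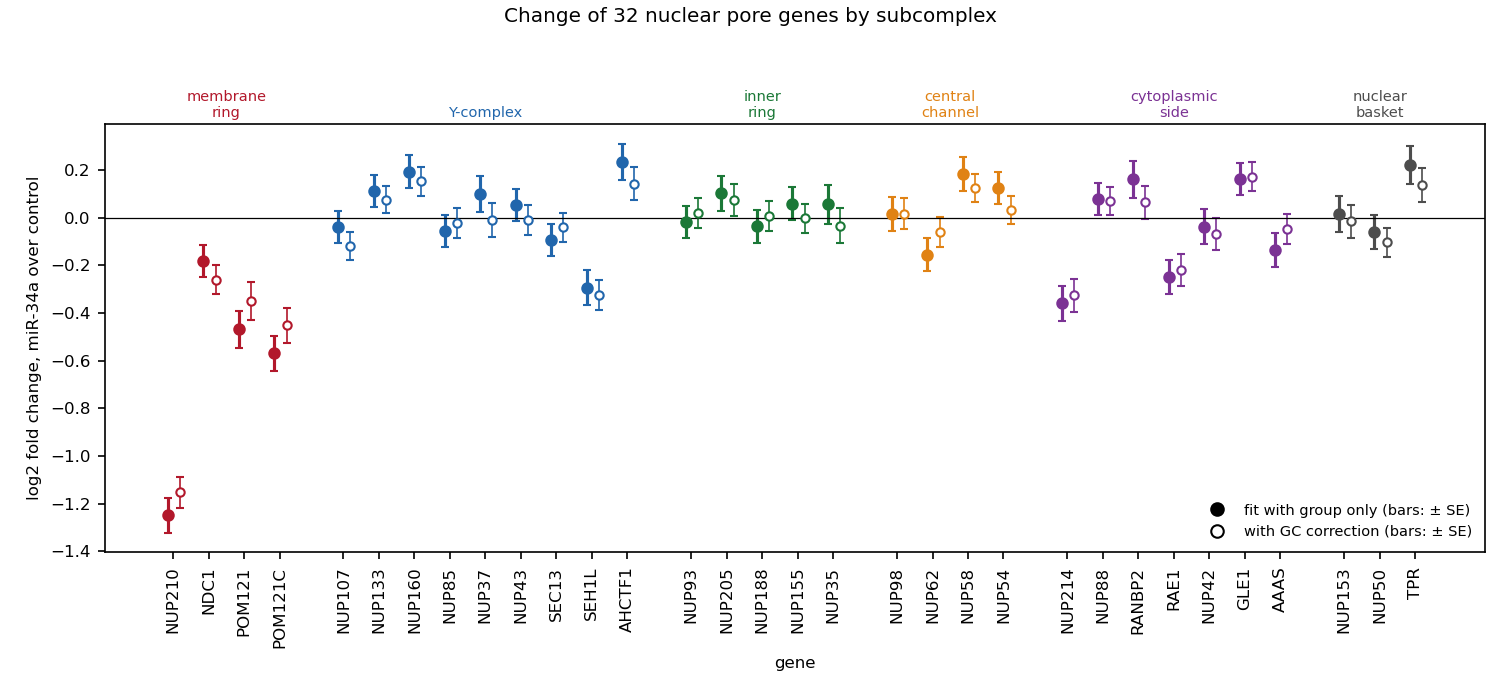
Log2 fold change (miR-34a over control) of the 32 pore genes by subcomplex, with ± SE bars. Filled points are the fit with group only and open points the fit with the GC correction. NUP210 lies at -1.25 and -1.15, and no gene outside the membrane ring is below -0.36 in either fit.

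The count of members that rose was the least steady of these results. Against 1 in all 6 libraries, 5 rose without control replicate 1, namely AHCTF1, NUP160, NUP58, RANBP2 and TPR. AHCTF1, NUP160 and TPR, 3 genes, rose with library sizes unscaled by TMM, with no filter and with DESeq2. No member rose without control replicate 2, control replicate 3, miR-34a replicate 2 or miR-34a replicate 3. The number of all tested genes that rose moved with the libraries as well. It was 938 in all 6 libraries, 1287 without control replicate 1 and 525 without control replicate 2. Without control replicate 3, miR-34a replicate 2 and miR-34a replicate 3 it was 606, 604 and 658. With NUP210 counted, 5 or 6 members fell whichever library was left out. Over all tested genes 727 to 1394 fell in the same fits, against 1167 in all 6 libraries. With the GC correction 7 members fell, the 6 of the plain fit with NUP210 among them and NDC1, and 0 rose. In that fit 945 of 16756 genes fell and 778 rose.

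The log2 fold change of the members ran against the GC content of their transcripts. GC content was read from 1 transcript per gene, for the members the one searched for sites. These transcripts ranged from 38.6% GC for NUP37 to 61.8% for POM121. For POM121 and POM121C the transcript is coding sequence only, with a 3′ UTR of 0 nt. Their GC values and corrected fold changes rest on that choice. Spearman's correlation across the 32 genes was -0.68. It was -0.57 over the 29 members other than NUP210, POM121 and POM121C. Over 16756 tested genes with a GC value it was -0.33, and -0.49 over the 8110 above 20 CPM. Genes share their libraries and are not independent, so no p is given. AHCTF1 (39.6% GC) and TPR (40.1%) are near the low end and POM121C (61.5%) and NUP210 (58.3%) near the high end. NUP62, with 58.4% GC, had a log2 fold change of -0.16, and -0.06 with the correction. The correction lowered the value of every member from NUP37 up to NUP88 (47.4% GC), SEH1L (44.5%) and NDC1 (40.7%) among them. It raised the value of every member with a higher GC content.

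**Figure D3:**
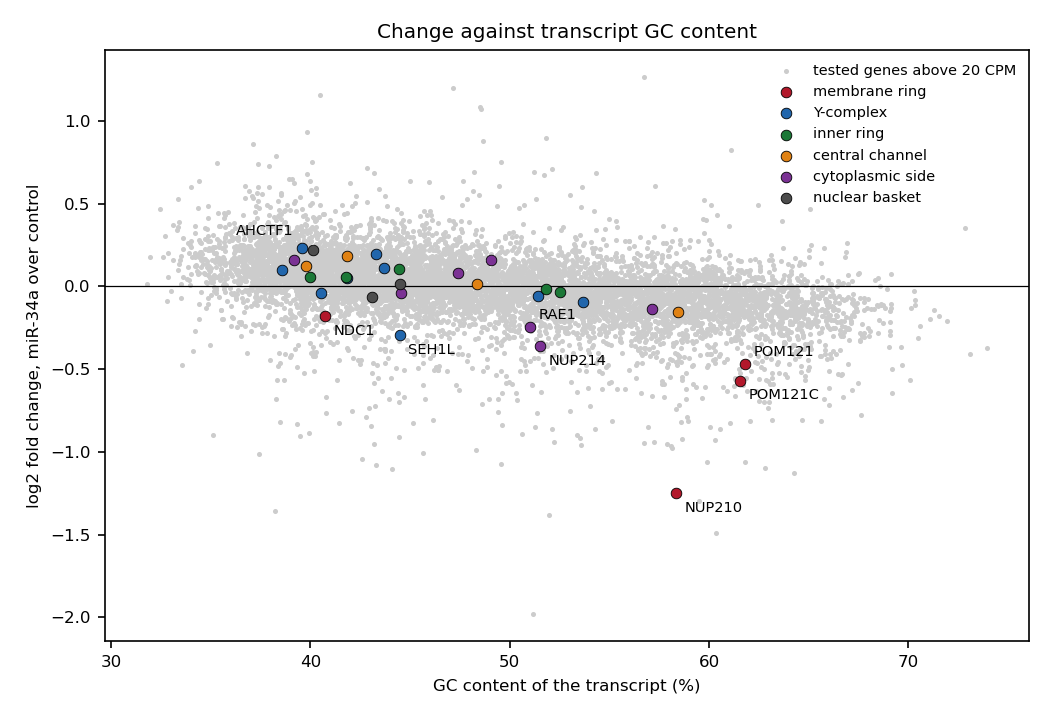
Log2 fold change (miR-34a over control) against transcript GC content in percent, with 8110 tested genes above 20 CPM in grey and the 32 pore genes coloured by subcomplex. The grey cloud slopes down with GC, and NUP210 is the lowest of the coloured points, at 58.3% GC.

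Levels of different genes were compared per length, as RPKM (CPM divided by the union exon length in kilobases). In the control libraries the members spanned 7.25 ± 0.321 RPKM for NUP214 to 66.3 ± 5.76 RPKM for NUP205 (SD, n = 3), with a median of 23.0. TPR (57.6 RPKM) and NUP133 (52.2 RPKM) followed NUP205. At the low end by this length were NUP35 (7.30 RPKM) and SEH1L (7.65 RPKM). The order depends on the length used. SEH1L has 10481 nt of union exons but a searched transcript of 1846 nt, and SEC13 has 5446 and 1479 nt. For NUP205 the lengths are closer, at 7619 and 6266 nt. In the order of control RPKM, 18 of the 31 neighbouring pairs differed by less than the larger SD of the pair. By union exon length the genes of the membrane ring had unequal control levels. NDC1 was at 42.4 ± 1.11 RPKM, NUP210 at 37.5 ± 2.72 RPKM, POM121 at 12.9 ± 1.11 RPKM and POM121C at 11.6 ± 0.613 RPKM (SD, n = 3). The gap to POM121 and POM121C rests in part on length. Their union exons are 9822 and 8767 nt and their searched transcripts 3750 and 3690 nt. For NDC1 the lengths are 5135 and 5134 nt, and for NUP210 8182 and 7193 nt. The shared sequence of POM121 and POM121C also leaves their separate levels uncertain.

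NUP210 ranked 7 of 32 in each control library and 22, 23 and 21 in the miR-34a libraries. Its RPKM was 1.60, 1.83 and 1.49 times the median of the other members in the control libraries and 0.701, 0.647 and 0.711 times in the miR-34a libraries. Relative to NDC1, its neighbour in the membrane ring, it was 0.918, 0.949 and 0.789 in the control libraries and 0.410, 0.407 and 0.448 in the miR-34a libraries. Both ratios were lower in every miR-34a library than in any control library. These ranks and ratios restate the decrease for which NUP210 was picked and are not a separate result. With the length of 1 transcript in place of the union of exons, NUP210 had 42.7 RPKM in the control, against a median of 40.0, and ranked 14.

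**Figure D4:**
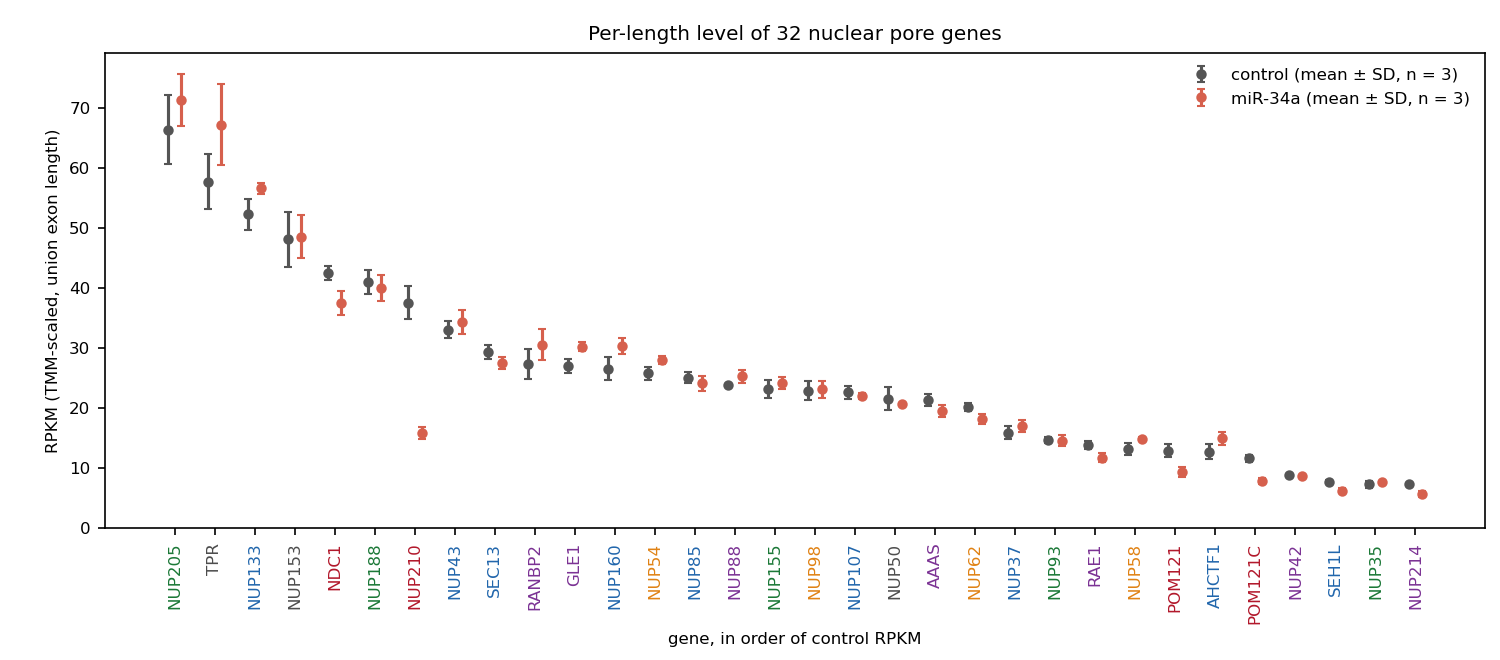
RPKM by union exon length (mean ± SD, n = 3 per group) of the 32 pore genes in order of their control level, control in grey and miR-34a in red. NUP210 drops from rank 7 to rank 22, while NUP205, TPR, NUP133 and NUP153 hold ranks 1 to 4 in both groups.

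The match of the seed was then set beside the changes. Of the 3 members with a 3′ UTR match of 7 or 8 nt, NUP210 had the decrease for which it was picked, and NUP43 and NUP188 did not pass. The 3′ UTRs of AAAS and RAE1 in the transcript chosen were 33 and 11 nt, and those of POM121 and POM121C were 0 nt. From the transcript chosen for NUP42 no 3′ UTR could be read, so these 5 were not classed. Other transcripts of POM121 and POM121C have 3′ UTRs of up to 2970 and 2006 nt, without a match. With the 3′ UTRs of all protein-coding transcripts, 5 of 32 members had a match, or 15.6% against 25.7% of 13460 genes. The added ones were SEH1L and RAE1. With 6mers included, 9 of 27 classed members had one, or 33.3% against 30.9%. The sites of SEH1L and RAE1 are shown because both genes fell.
SEH1L 3′ UTR site, other transcript: tgcgatgctgaCACTGCCAacctccagtat
RAE1 3′ UTR site, other transcript: tctctccattcCACTGCCtgttgcagagt

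The SEH1L site is an 8mer on chromosome 18 (12986973 to 12986980, plus strand). It lies in the 3′ UTR of one annotated transcript and in the coding sequence of the transcript searched, in exon 9 of 9 of both. The RAE1 site is a 7mer-m8 on chromosome 20 (57378285 to 57378291, plus strand), 185 nt into a 3′ UTR of 1112 nt.

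Coding sequences were searched in the same way. NUP210 and the 5 members that fell, AHCTF1 and 9 of the 24 others with a searched coding sequence had a match of 7 or 8 nt there, a split looked at after the values were seen. POM121 and POM121C, copies that share much of their sequence, are counted separately among the 5. In all, 16 of 31 members had one, or 51.6% against 27.9% of 13408 genes. The members' coding sequences are longer, with a median of 2643 nt against 1452 nt. Per kilobase of coding sequence they held 0.220 matches, against 0.208 over all genes. NUP210 carries overlapping 8mers in exon 18 of 40 (chromosome 3, 13353607 to 13353614 and 13353601 to 13353608, minus strand). POM121 and POM121C carry 3 7mer-m8 matches each, 1 in exon 9 and 2 in exon 11 of 13. NUP214 carries a 7mer-m8 in exon 29 of 36 (chromosome 9, 131198489 to 131198495, plus strand). Coding windows are shown for NUP210, POM121 and NUP214 only, a choice made after their values were seen. RAE1, which also fell, carries a 7mer-A1 in exon 5 of 11 (chromosome 20, 57365392 to 57365398, plus strand), not shown. The coding match of SEH1L is the 8mer shown above. Whether coding matches bear on these changes was not tested. The POM121 windows are those on chromosome 7 at 72940443 to 72940449, 72942558 to 72942564 and 72942705 to 72942711 (plus strand).
NUP210 coding site 1: accacagccatCACTGCCActgccactggc
NUP210 coding site 2: gccatcactgcCACTGCCActggctaccag
POM121 coding site 1: ggctattcgatCACTGCCgaggacctaga
POM121 coding site 2: accagcaccgcCACTGCCgcctcacagcc
POM121 coding site 3: cagtccctgcaCACTGCCgtgccaacggc
NUP214 coding site: aacaacacagcCACTGCCccctctgccac

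Members with coding matches did not all move. NUP98 and NUP153 carry an 8mer and a 7mer each, and both had a log2 fold change of 0.01. TPR, NUP160, RANBP2, NUP155 and NUP188 carry an 8mer each and had log2 fold changes of 0.22, 0.19, 0.16, 0.06 and -0.04. A match describes letters in a transcript and was not tested as a binding site.

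**Figure D5:**
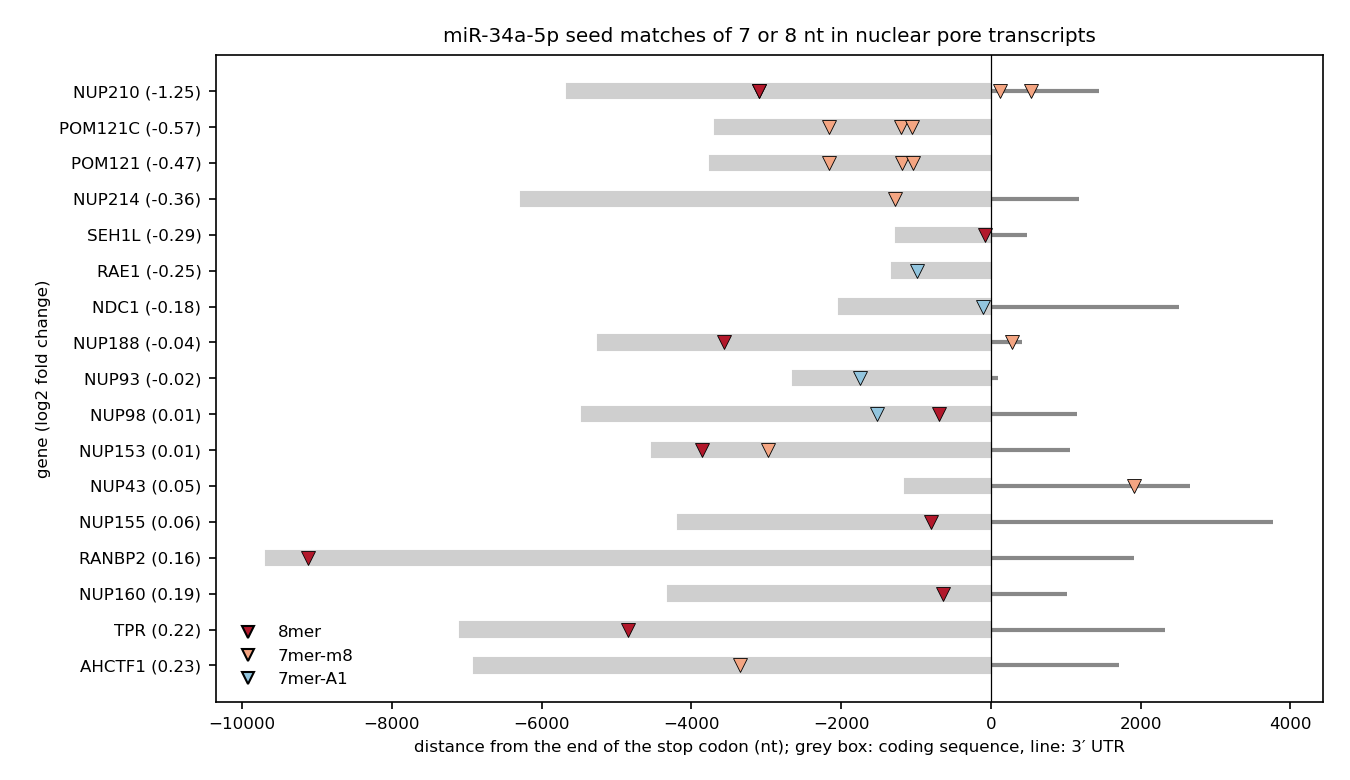
Map of the 17 pore transcripts with a miR-34a-5p match of 7 or 8 nt, drawn to scale as distance in nt from the end of the stop codon, with the coding sequence as a grey box, the 3′ UTR as a line and matches as triangles coloured by kind. Genes are in order of log2 fold change, given in brackets, from NUP210 (-1.25) with matches on both sides of the stop codon to AHCTF1 (0.23) with 1 in the coding sequence.

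The pore's partners in transport were read from 6 lists of 93 genes, of which 87 were tested. Of these 8 fell and 5 rose, or 14.9% against 12.1% of all genes. The counts moved with the libraries. Without control replicate 3, miR-34a replicate 2 or miR-34a replicate 3 the number that fell was 4, 2 and 4. Over all tested genes it was 808, 727 and 876, against 1167 in all 6 libraries. Without control replicate 1, control replicate 2 or miR-34a replicate 3 the number that rose was 12, 3 and 3. Over all tested genes it was 1287, 525 and 658, against 938 in all 6 libraries.

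Among 18 importins, which carry cargo inward, 3 rose (16.7%, against 5.38% of all tested genes) and none fell. The median log2 fold change was 0.11. All 3 that rose were importin alpha genes, the adaptors that read nuclear localisation signals. The importin alpha genes KPNA1, KPNA2 and KPNA4 did not pass, with log2 fold changes of 0.16, 0.10 and 0.07, and KPNA7 was below the filter. KPNA2 was the most expressed importin alpha gene, at a mean of 626 CPM. KPNA5 was at 66.8, 57.9 and 60.7 CPM with the control and at 97.1, 93.1 and 97.5 CPM with miR-34a. The groups were well apart, and the log2 fold change of KPNA5 was 0.64 ± 0.07 (SE, edgeR adjusted p = 6.06e-07), and 0.50 with the GC correction. KPNA6 went from 143 ± 12.4 to 173 ± 6.33 CPM (SD, n = 3 each), a log2 fold change of 0.27 ± 0.07 (SE, edgeR adjusted p = 0.0121). It did not pass without control replicate 2 (edgeR adjusted p = 0.0803). KPNA3 had a log2 fold change of 0.25 ± 0.07 (SE, edgeR adjusted p = 0.0183) and did not pass without control replicate 2 (0.0998), miR-34a replicate 1 (0.0707) or miR-34a replicate 2 (0.0800), nor with the GC correction (0.0832).

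None of 8 exportins passed. The most expressed, XPO1 (CRM1, the main export receptor), was at 633 ± 43.1 CPM in the control and 689 ± 18.9 CPM in the miR-34a libraries (SD, n = 3 each), and CSE1L, which returns importin alpha to the cytoplasm, at 613 ± 35.1 and 638 ± 36.5 CPM. Their log2 fold changes were 0.12 and 0.06. Of 10 genes of the Ran cycle 1 fell (10%, against 6.7% of all tested genes) and none rose. This was RCC2, a relative of the Ran exchange factor RCC1, at 331, 325 and 311 CPM with the control and 282, 255 and 260 CPM with miR-34a. All its miR-34a libraries were lower, with a log2 fold change of -0.28 ± 0.07 (SE, edgeR adjusted p = 0.00655, and 0.0698 without miR-34a replicate 2). Of 20 genes of mRNA export 1 fell (5%, against 6.7% of all tested genes) and none rose. This was ENY2, a subunit of the TREX-2 complex at the basket, with a log2 fold change of -0.26 ± 0.07 (SE, edgeR adjusted p = 0.0168). With the GC correction SEM1, another TREX-2 subunit, fell as well (log2 fold change -0.31, edgeR adjusted p = 0.00773, against -0.20 and 0.0854 without it). ENY2 did not pass without control replicate 3 (0.0928), miR-34a replicate 2 (0.109) or miR-34a replicate 3 (0.0687).

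Of 24 genes of the nuclear lamina and envelope 6 fell and 1 rose, with a median log2 fold change of 0.01. TMEM201 (SAMP1), an inner nuclear membrane protein, was at 58.9, 57.1 and 56.8 CPM with the control and at 40.4, 39.0 and 37.1 CPM with miR-34a. All miR-34a libraries were lower, with a log2 fold change of -0.57 ± 0.07 (SE, edgeR adjusted p = 3.55e-06). TMEM43, an envelope protein that binds lamins, was at 86.9, 84.7 and 86.8 CPM with the control and at 67.3, 61.6 and 66.6 CPM with miR-34a. It fell with the groups clearly apart, and the log2 fold change was -0.40 ± 0.07 (SE, edgeR adjusted p = 0.000196). CHMP7, an ESCRT protein that acts in sealing the envelope, fell with a log2 fold change of -0.33 ± 0.08 (SE, edgeR adjusted p = 0.00652), and did not pass without miR-34a replicate 2 (0.0761). NRM, TOR1A and TMEM33 were the others that fell, and SYNE3 was the 1 that rose, named after their values were seen. The call of NRM (edgeR adjusted p = 0.0192) was lost without control replicate 3 (0.168), miR-34a replicate 2 (0.0751) and miR-34a replicate 3 (0.0537), and with the GC correction (log2 fold change -0.25, 0.112). Of the fits with 1 library left out, TMEM33 (0.0427) was kept only without miR-34a replicate 1, with adjusted p-values of 0.0624 to 0.197 without each of the others. In the same fits TOR1A (0.0410) was kept only without control replicate 1, with 0.0533 to 0.202 without each of the others. SYNE3 (0.0136) lost its call without miR-34a replicate 3 (0.0737). With the GC correction SUN2, a LINC complex protein of the inner nuclear membrane, rose as well (log2 fold change 0.28, edgeR adjusted p = 0.00724, against 0.16 and 0.176 without it). Of 7 nucleoporin paralogues and partners 1 rose (14.3%, against 5.38% of all tested genes) and none fell. This was NUP62CL, a paralogue of NUP62, which rose by 0.31 ± 0.08 on the log2 scale (SE, edgeR adjusted p = 0.0136). It did not pass without control replicate 3 (0.0653) or miR-34a replicate 3 (0.0555), nor with the GC correction (0.0541). NUP210L, the paralogue of NUP210, was below the filter with at most 0.409 CPM in any library.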

How the data were processed

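Total RNA of the 6 libraries was sequenced after TruSeq RNA v2 preparation, per the labels' protocols. The deposited table holds raw counts for each Ensembl gene in each library, made by the authors. The submitters' processing notes name STAR 2.7.11a, featureCounts (Subread 2.0.3), edgeR 3.42.4 and GRCh38. How multi-mapping reads were handled, whether strand was used and which annotation served are not given in the sources used.

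Genes were filtered with filterByExpr (minimum count 10, minimum total 15) and tested with edgeR 4.0.16 in R 4.3.3 (TMM, quasi-likelihood test, group only, two-sided, Benjamini-Hochberg over 17427 genes). The script was tested on simulated data. The members and lists were chosen with earlier results of these data known. Values are given for every member that passed, for the most expressed members of a subcomplex with fewer than 2 such genes (up to 2 genes), for members with a 3′ UTR match, and for up to 3 called genes per transport list, or the 2 most expressed where none was called. Other members named because their groups did not overlap, or to complete a small group, were picked after their values were seen. Symbols, exon lengths, GC content and seed matches come from GENCODE release 29, which holds 58126 of the 63140 identifiers. Alternatives were the replicate block, other scalings and filters, DESeq2 1.42.0, each library left out, and, chosen after seeing the data, POM121 and POM121C summed and a correction by offsets from each library's lowess trend in GC. No pair of libraries of a group differed by as little as counting noise (chi-square per degree of freedom 8.46 to 16.1), so none was merged.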

Additional observations from a re-analysis of the deposited data

How the results depend on the processing

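Under these alternatives no called member or transport gene turned sign. Besides 1 member that rose in all 6 libraries, 3 rose with library sizes unscaled by TMM, 3 with no filter, 3 with the DESeq2 Wald test, 0 with the GC correction and 0 with the replicate block. Leaving out each library gave 0 to 5, while the number of all tested genes that rose was 525 to 1287. In the transport lists 5 rose, 8 with the DESeq2 Wald test and 3 to 12 with a library left out. There 8 fell, and 2 to 8 with a library left out, while the number of all tested genes that fell was 727 to 1394. The membrane ring's median log2 fold change of -0.52 was -0.40 with the GC correction. That of the Y-complex, 0.05, was -0.0096 with the GC correction and 0.0070 to 0.081 with a library left out. With transcript length the control median was 40.0 RPKM, NUP210 was at 42.7 RPKM and its rank was 14. Members with a seed match numbered 5 with all coding transcripts and 9 with 6mers. The causes of these shifts were not tested.

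Same-numbered libraries did not deviate together (correlations of -0.025, 0.022 and -0.076), so the numbers were not taken to pair the samples. With the replicate as a block 6 members fell, NUP210 counted, and 0 rose, AHCTF1 having an edgeR adjusted p of 0.0595, and 1830 genes were called in all against 2105. With 3 libraries a group, no member with a log2 fold change nearer 0 than 0.23 passed in the full fit. No exact permutation test of a single gene could pass it, the smallest two-sided p for 3 against 3 being 0.1.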
